A study of Mus musculus with 12 samples.

Results

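The genes examined here process and present antigen: Psmb8, Psmb9, Psmb10, Tap1, Tap2, Tapbp, B2m, Cd74, Ciita and H2-Aa. They are 10 of the 19938 genes that a transcript cluster of the array names alone, and they were listed by name, with earlier results of these data known. A transcript cluster is a set of probes that the array summarises as 1 value, and the annotation can give it 1 gene, several or none. Each of the 10 had 1 such cluster, and all 10 passed the filter on dim signals, which required 3 or more arrays with a value over the 40th percentile of all clusters on that array.

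Cells show fragments of their proteins to T cells on class I and class II molecules of the major histocompatibility complex. For class I, the proteasome cuts proteins in the cytosol, a transporter carries the peptides into the endoplasmic reticulum, and chaperones load them onto a heavy chain bound to beta 2-microglobulin. Interferon gamma is known to raise most genes of this route, among them the immunoproteasome subunits that replace the constitutive catalytic subunits. Class II molecules present material taken up from outside, and in liver they are known mainly from dendritic cells, macrophages and B cells.

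The study measured total RNA of whole liver from mice aged 2 weeks on Affymetrix arrays, 3 arrays (A, B and C) for each of 4 genotypes. Stat3Fl/Fl livers carry a floxed Stat3 gene and are called floxed liver below, and Stat3Δhc livers carry a deletion of Stat3. Stat3Fl/FlMdr2-/- and Stat3Δhc Mdr2-/- livers combine these with a knockout of Mdr2, the phospholipid exporter of the bile canaliculus encoded by Abcb4, whose loss is used as a model of sclerosing cholangitis. No group is labelled wild type, the labels name no Cre driver, and they do not say whether the arrays of a group come from separate animals, so that p-values measure the spread between these arrays.

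Stat3 followed the sample titles, with a log2 change of -1.52 without the Mdr2 knockout and -1.48 with it. Its signal was lowered to means of 7.71 in Stat3Δhc and 7.91 in Stat3Δhc Mdr2-/- liver, from 9.23 in floxed and 9.39 in Stat3Fl/FlMdr2-/- liver. Abcb4 also followed the titles, with -0.98 in floxed and -1.08 in Stat3Δhc liver. In the source names, by contrast, both Mdr2-/- genotypes are exchanged. Y-linked signal was high in 8 arrays, namely the 6 with intact Mdr2 plus B and C of Stat3Δhc Mdr2-/- liver. Xist was high in the remaining 4, the 3 Stat3Fl/FlMdr2-/- arrays plus A of Stat3Δhc Mdr2-/- liver. All 12 skeletal muscle markers fell with Mdr2 loss in both backgrounds, from a mean log2 value of 8.88 to 9.66 in arrays with intact Mdr2 to one of 5.40 to 5.85 in Mdr2-/- arrays. Exocrine pancreas markers (8 genes) varied widely with intact Mdr2, with a mean of 5.63 to 9.30 in floxed and 5.89 to 10.29 in Stat3Δhc liver against 5.45 to 5.81 in the 6 Mdr2-/- arrays, and 1 of the 8 fell with Mdr2 loss, in Stat3Δhc liver. The part of muscle or pancreas RNA in the results on the 10 genes was not tested. The hepatocyte marker mean ran from 12.414 to 12.706 in floxed and from 12.796 to 12.825 in Stat3Δhc liver. It ran from 12.454 to 12.608 in Stat3Fl/FlMdr2-/- and from 12.649 to 12.755 in Stat3Δhc Mdr2-/- liver. Of 9 tested hepatocyte markers 1 rose with Stat3 deletion without the knockout and 1 with it. With Mdr2 loss 1 fell in floxed and 2 in Stat3Δhc liver. Albumin, the most abundant of these markers, lay between 13.65 and 13.89 in all 12 arrays. In such bulk samples fewer cells of a type and less RNA per cell cannot be told apart.

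The class II genes Cd74 and H2-Aa had the largest changes of the 10, and both rose with Mdr2 loss on either Stat3 background. A gene was called where its limma p, adjusted by Benjamini-Hochberg over 13977 genes, was under 0.05. With Mdr2 loss in Stat3Δhc liver, 8 of the 10 rose and 0 fell, where 6.9% of all tested genes rose and 10.5% fell (964 and 1467 genes, or 722 and 1733 with median centring of the arrays). With Mdr2 loss in floxed liver, 2 of the 10 rose and 0 fell, where 7.12% of all tested genes rose and 5.65% fell. For Stat3 deletion, 0 of the 10 were called on either background (2.58% of all tested genes without the Mdr2 knockout and 5.77% with it).

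**Figure D1:**
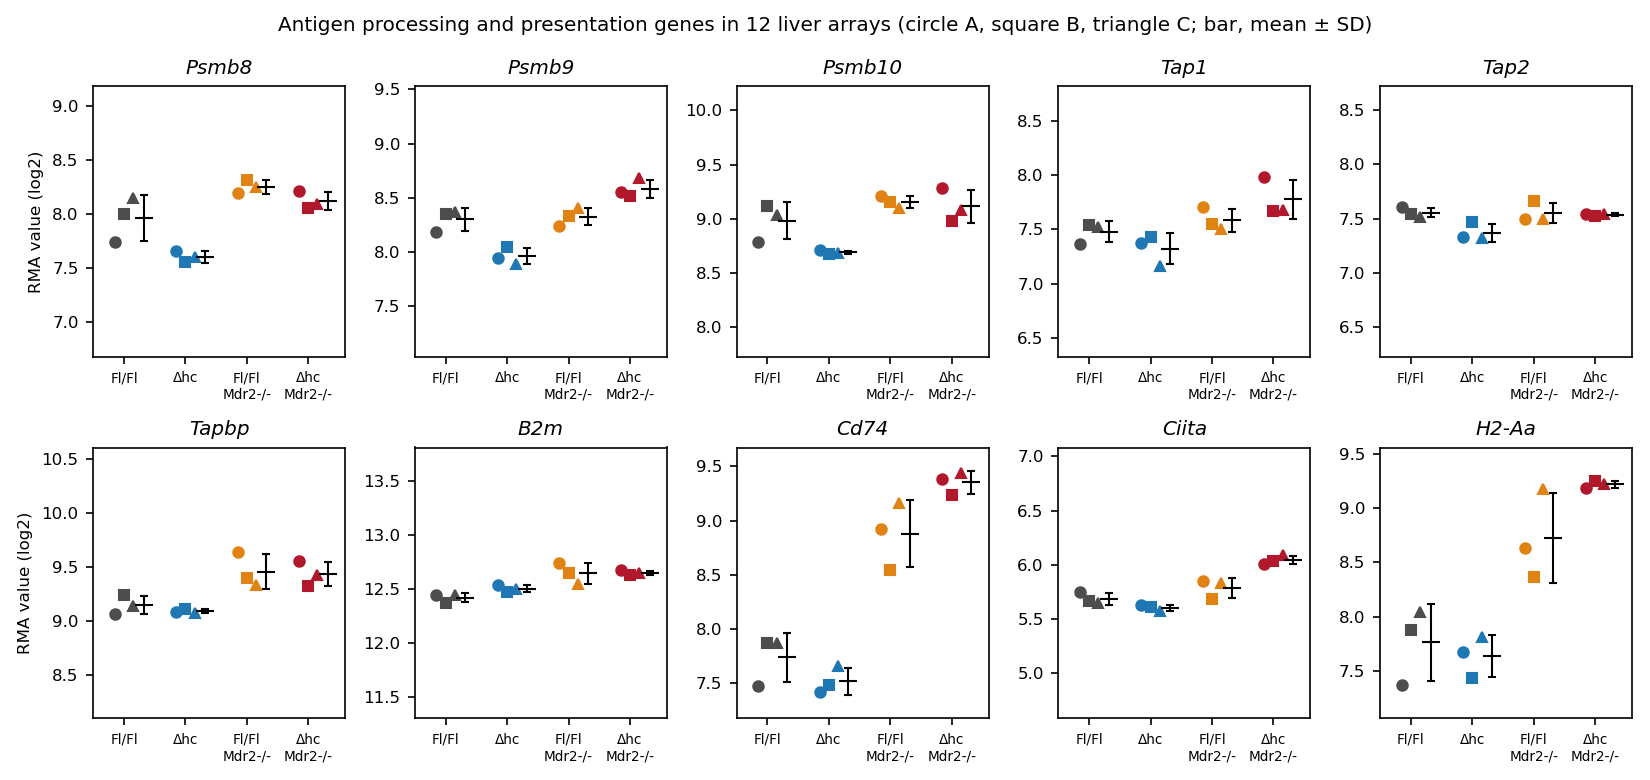
RMA values (log2, vertical axis, each panel spanning an equal range around its own centre) of the 10 genes in 12 arrays, by genotype; symbols mark arrays A, B and C and bars the mean and SD of 3 arrays. Cd74 and H2-Aa stand higher in all 6 Mdr2-/- arrays than in the 6 others, and all 10 genes are higher in the 3 Stat3Δhc Mdr2-/- than in the 3 Stat3Δhc arrays.

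The immunoproteasome subunits come first in the route. Psmb8, which encodes the subunit that takes the place of Psmb5, had log2 values of 7.74, 8.0 and 8.15 for floxed liver (arrays A, B, C in this order, here and below) and of 7.66, 7.56 and 7.60 in Stat3Δhc liver. Its Mdr2-/- values were 8.19, 8.31 and 8.25 with floxed Stat3 and 8.21, 8.06 and 8.09 with Stat3Δhc. The 3 Stat3Δhc arrays were thus the lowest of the 12, and array A of floxed liver lay nearest to them. Psmb8 rose 1.43-fold with Mdr2 loss in Stat3Δhc liver (log2 change 0.51, SE 0.10, limma adjusted p = 0.00454). In floxed liver its change with Mdr2 loss was 0.29 (95% interval 0.07 to 0.50, adjusted p = 0.0839), and without array C of floxed liver it was 0.38 (adjusted p = 0.042).

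Psmb9, the partner that takes the place of Psmb6, had 8.18, 8.35 and 8.37 in floxed liver and 7.95, 8.04 and 7.89 in Stat3Δhc liver. With the knockout it had 8.24, 8.33 and 8.40 with floxed Stat3 and 8.55, 8.52 and 8.68 with Stat3Δhc. Here the Stat3Δhc arrays were again the lowest of the 12, but the Stat3Δhc Mdr2-/- arrays were the highest, and the 2 floxed groups overlapped. Psmb9 rose 1.54-fold with Mdr2 loss in Stat3Δhc liver (log2 change 0.62, SE 0.086, limma adjusted p = 0.000562). In floxed liver the change was 0.03 (95% interval -0.16 to 0.21, adjusted p = 0.886).

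Psmb10, which takes the place of Psmb7, had 8.79, 9.12 and 9.04 in floxed liver and 8.71, 8.67 and 8.68 in Stat3Δhc liver. In the knockout it had 9.21, 9.15 and 9.10 with floxed Stat3 and 9.28, 8.98 and 9.08 with Stat3Δhc. As for Psmb8, the Stat3Δhc arrays were the lowest, and for Psmb10 the other 3 groups overlapped. It rose 1.34-fold with Mdr2 loss in Stat3Δhc liver (log2 change 0.43, SE 0.10, limma adjusted p = 0.0127) and was not called in floxed liver (0.17, adjusted p = 0.31).

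The constitutive subunits that these 3 replace did not rise. Psmb6 fell with Mdr2 loss in floxed liver by 0.37 (SE 0.088, limma adjusted p = 0.0151) and in Stat3Δhc liver by 0.41 (adjusted p = 0.00713). Psmb5 and Psmb7, named as counterparts with their values already seen, had changes of -0.22 and 0.16 in floxed liver (adjusted p = 0.283 and 0.313) and of -0.35 and -0.04 in Stat3Δhc liver (adjusted p = 0.0638 and 0.768). Of 14 constitutive subunits of the 20S core, 0 rose and 2 fell with Mdr2 loss in Stat3Δhc liver, Psmb6 and Psmb2 (-0.29, adjusted p = 0.0485). The median change of the 14 was -0.23, against 0.51 for the 3 immunoproteasome subunits and -0.02 for all tested genes. Among 7 proteasome activator and assembly genes 0 were called in either background.

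The peptide loading genes come next. Tap1, one chain of the peptide transporter, had 7.37, 7.54 and 7.53 in floxed liver and 7.37, 7.43 and 7.17 in Stat3Δhc liver. Among Mdr2-/- arrays it had 7.70, 7.55 and 7.50 with floxed Stat3 and 7.98, 7.67 and 7.68 with Stat3Δhc. Its 3 Stat3Δhc Mdr2-/- arrays lay above both groups without the knockout. Tap1 rose 1.37-fold with Mdr2 loss in Stat3Δhc liver (log2 change 0.45, SE 0.11, limma adjusted p = 0.0135), which was 0.38 without array C of Stat3Δhc liver (adjusted p = 0.0677). In floxed liver the change was 0.11 (adjusted p = 0.593).

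Tap2, the other chain, lay between 7.32 and 7.66 in all 12 arrays, and its group means ran from 7.37 ± 0.08 in Stat3Δhc liver to 7.55 ± 0.04 in floxed liver (SD, n = 3). It was called in no comparison, and its change with Mdr2 loss in Stat3Δhc liver was 0.17 (95% interval -0.00 to 0.33, limma adjusted p = 0.151). With array weights that change was 0.19 (adjusted p = 0.0119).

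Tapbp encodes tapasin, which holds the class I molecule at the transporter. It had 9.07, 9.24 and 9.14 in floxed liver and 9.09, 9.11 and 9.08 in Stat3Δhc liver. Its values with Mdr2 loss were 9.64, 9.40 and 9.34 with floxed Stat3 and 9.55, 9.33 and 9.43 with Stat3Δhc. All 6 Mdr2-/- arrays were above the 6 others, and within each background the Stat3 groups overlapped. Tapbp rose 1.27-fold with Mdr2 loss in Stat3Δhc liver (log2 change 0.34, SE 0.096, limma adjusted p = 0.0277) and had a change of 0.31 in floxed liver (adjusted p = 0.0514). The call in Stat3Δhc liver was lost without array A or array C of Stat3Δhc liver (adjusted p = 0.0793 and 0.0877) and without array A or array C of Stat3Δhc Mdr2-/- liver (adjusted p = 0.0715 and 0.0597), and also with median centring (0.30, adjusted p = 0.0516). The call in floxed liver was gained without array A or array C of Stat3Δhc Mdr2-/- liver (adjusted p = 0.0471 and 0.0496), since all 12 arrays share 1 estimate of the spread.

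B2m, the light chain of class I, was bright in every array, from 12.37 to 12.45 in floxed, 12.47 to 12.54 in Stat3Δhc, 12.55 to 12.74 in Stat3Fl/FlMdr2-/- and 12.63 to 12.67 in Stat3Δhc Mdr2-/- liver. These ranges do not overlap between the arrays with and without the knockout. The changes with Mdr2 loss were 0.22 in floxed liver (95% interval 0.06 to 0.38, limma adjusted p = 0.0686) and 0.15 in Stat3Δhc liver (-0.01 to 0.31, adjusted p = 0.174), and neither was called. Cyclic loess scaling gave 0.30 (adjusted p = 0.00934) and 0.20 (adjusted p = 0.0478).

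The class II genes form the last group. Cd74, the invariant chain that fills the groove of new class II molecules, had 7.47, 7.87 and 7.87 in floxed liver and 7.42, 7.48 and 7.65 in Stat3Δhc liver. In Mdr2-/- liver it had 8.92, 8.55 and 9.17 with floxed Stat3 and 9.38, 9.24 and 9.44 with Stat3Δhc. The groups with and without the knockout were far apart, and the Stat3Δhc Mdr2-/- arrays were the 3 highest of the 12. Cd74 rose 2.21-fold with Mdr2 loss in floxed liver (log2 change 1.14, SE 0.15, limma adjusted p = 0.000448) and 3.57-fold in Stat3Δhc liver (1.84, SE 0.15, adjusted p = 7.67e-06).

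H2-Aa, the alpha chain of a class II molecule, had 7.37, 7.88 and 8.04 in floxed liver and 7.67, 7.43 and 7.81 in Stat3Δhc liver. With Mdr2 loss it had 8.64, 8.37 and 9.18 with floxed Stat3 and 9.19, 9.25 and 9.23 with Stat3Δhc. The Stat3Fl/FlMdr2-/- arrays spread most (SD 0.41), and array C among them nearly reached the lowest Stat3Δhc Mdr2-/- array. H2-Aa rose 1.95-fold with Mdr2 loss in floxed liver (log2 change 0.96, SE 0.20, limma adjusted p = 0.00677) and 3.0-fold in Stat3Δhc liver (1.59, SE 0.20, adjusted p = 0.000245).

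Ciita encodes the coactivator that class II promoters need. A stricter filter at the 60th percentile removed it from the test, which the other 9 passed. Ciita was dim, with group means of 5.60 to 6.04, where array medians over all clusters ran from 6.01 to 6.14. It had 5.74, 5.66 and 5.64 in floxed liver and 5.63, 5.61 and 5.58 in Stat3Δhc liver. On the Mdr2 knockout it had 5.85, 5.68 and 5.83 with floxed Stat3 and 6.01, 6.04 and 6.09 with Stat3Δhc. The Stat3Δhc Mdr2-/- arrays were the 3 highest and the Stat3Δhc arrays the 3 lowest of the 12. The highest Stat3Δhc value, 5.63, lay close to the lowest floxed value, 5.64. Ciita rose 1.36-fold with Mdr2 loss in Stat3Δhc liver (log2 change 0.44, SE 0.076, limma adjusted p = 0.00217) and was not called in floxed liver (0.10, 95% interval -0.06 to 0.27, adjusted p = 0.426).

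The promoter of H2-Aa and that of B2m are shown because class II and class I genes are known to share a module in which RFX and CREB family factors bind an X box and NF-Y binds a CCAAT box. Capitals mark matches to the motifs named below, and each sequence is the 250 bases before the RefSeq start in GRCm38.p6, 5′ to 3′ on the gene's strand. H2-Aa lies at chr17:34287824-34288073 (minus strand) and B2m at chr2:122147437-122147686 (plus strand).
H2-Aa: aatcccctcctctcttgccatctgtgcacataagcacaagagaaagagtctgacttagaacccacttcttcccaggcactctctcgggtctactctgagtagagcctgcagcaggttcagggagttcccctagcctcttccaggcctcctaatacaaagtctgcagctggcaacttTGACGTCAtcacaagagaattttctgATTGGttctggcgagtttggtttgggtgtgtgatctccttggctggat
B2m: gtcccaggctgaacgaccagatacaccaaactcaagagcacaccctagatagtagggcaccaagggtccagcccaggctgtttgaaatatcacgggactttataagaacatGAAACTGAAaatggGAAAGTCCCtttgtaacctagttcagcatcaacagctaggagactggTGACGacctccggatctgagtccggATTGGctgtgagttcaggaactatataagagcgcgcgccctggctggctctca
Motifs were searched on both strands in the 7 members that the RefSeq promoter table holds. TGACGTCA, the cyclic AMP response element, was found in H2-Aa, 74 bases before the start, and in 1.55% of all 32851 promoter windows. Its shorter core TGACG, which overlaps it in H2-Aa, was found in 4 of the 7 (17.8% of windows), and CCAAT in 5 of the 7 (33.9%). Both counts include Psmb9 and Tap1, whose matches are the same TGACG and the same CCAAT in the stretch between them. In B2m the TGACG and CCAAT matches lay 78 and 53 bases before the start, and in H2-Aa the TGACG and CCAAT matches lay 74 and 48 bases before it. B2m was the only one of the 7 with GAAANNGAA, the core of an interferon response element (7.13% of windows), or GGGNNTTTC, an NF-kB type motif (3.72%). A match describes these letters and is no evidence of binding.

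Psmb9 and Tap1 share a promoter region, and the bases between their starts are shown because 1 stretch of DNA faces both genes. In GRCm38.p6 the region is chr17:34187331-34187555, 225 bases, written on the strand of Tap1 with Psmb9 read the other way.
Psmb9-Tap1: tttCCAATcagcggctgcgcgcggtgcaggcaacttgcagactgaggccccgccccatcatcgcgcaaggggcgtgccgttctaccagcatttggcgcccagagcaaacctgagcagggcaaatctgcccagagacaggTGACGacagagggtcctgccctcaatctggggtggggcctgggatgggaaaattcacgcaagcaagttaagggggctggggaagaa
It held 1 TGACG, 86 bases before the start of Tap1, and 1 CCAAT, 222 bases before it, and TGACGTCA, GAAANNGAA and GGGNNTTTC were not in these letters. In the RefSeq gene order Psmb9, Tap1, Psmb8 and Tap2 follow each other on chromosome 17. With Mdr2 loss in Stat3Δhc liver the 4 neighbours had log2 changes of 0.62, 0.45, 0.51 and 0.17, and in floxed liver of 0.03, 0.11, 0.29 and -0.00. Psmb9 and Tap1, which face each other, had changes of 0.26 and 0.19 with Stat3 deletion on the Mdr2 knockout (limma adjusted p = 0.0876 and 0.252), where Psmb8 and Tap2 had -0.13 and -0.02 (adjusted p = 0.395 and 0.906).

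Mdr2 loss is the contrast in which most of the 10 moved. In Stat3Δhc liver all 10 had 3 knockout arrays above the 3 others, which 14.9% of all tested genes did, and their median change was 0.45 against -0.02 for all tested genes. The 2 not called were Tap2 and B2m. Array A of Stat3Δhc Mdr2-/- liver was the only Xist-high array in this contrast. Without it all arrays compared had the Y-linked pattern and 7 of the 10 rose, with Tapbp the call lost. Of all 13977 tested genes 1010 then rose and 1603 fell (18.7% called, against 17.4% with the array). Cd74 then changed by 1.82 (adjusted p = 6.5e-05), H2-Aa by 1.60 (adjusted p = 0.00121), Ciita by 0.46 (adjusted p = 0.00581) and Psmb9 by 0.64 (adjusted p = 0.00198).

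In floxed liver 5 of the 10 (Psmb8, Tapbp, B2m, Cd74 and H2-Aa) had 3 knockout arrays above the 3 others, against 18.2% of all tested genes, and the median change of the 10 was 0.20 against -0.00. Every Stat3Fl/FlMdr2-/- array was Xist-high and every floxed array Y-linked, so that genotype and sex pattern cannot be told apart within this contrast. With the pattern as a covariate, which the Stat3Δhc Mdr2-/- arrays alone can estimate, Cd74 changed by 1.10 (limma adjusted p = 0.134) and H2-Aa by 1.01 (adjusted p = 0.323), and 0 of the 10 were called. The same covariate lowered the share of all tested genes called from 12.8% to 0.73%, and the changes of both genes were 1.14 and 0.96 without it. In Stat3Δhc Mdr2-/- liver the Xist-high array A had 9.38 for Cd74 and 9.19 for H2-Aa. The Y-linked arrays B and C had 9.24 and 9.44 for Cd74 and 9.25 and 9.23 for H2-Aa. Array A is alone in its pattern there, and the part of the sex pattern in the Cd74 and H2-Aa results was not tested. The 8 calls in Stat3Δhc liver and the 2 in floxed liver do not show that the effects of Mdr2 loss differ, which was tested directly as described below.

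**Figure D2:**
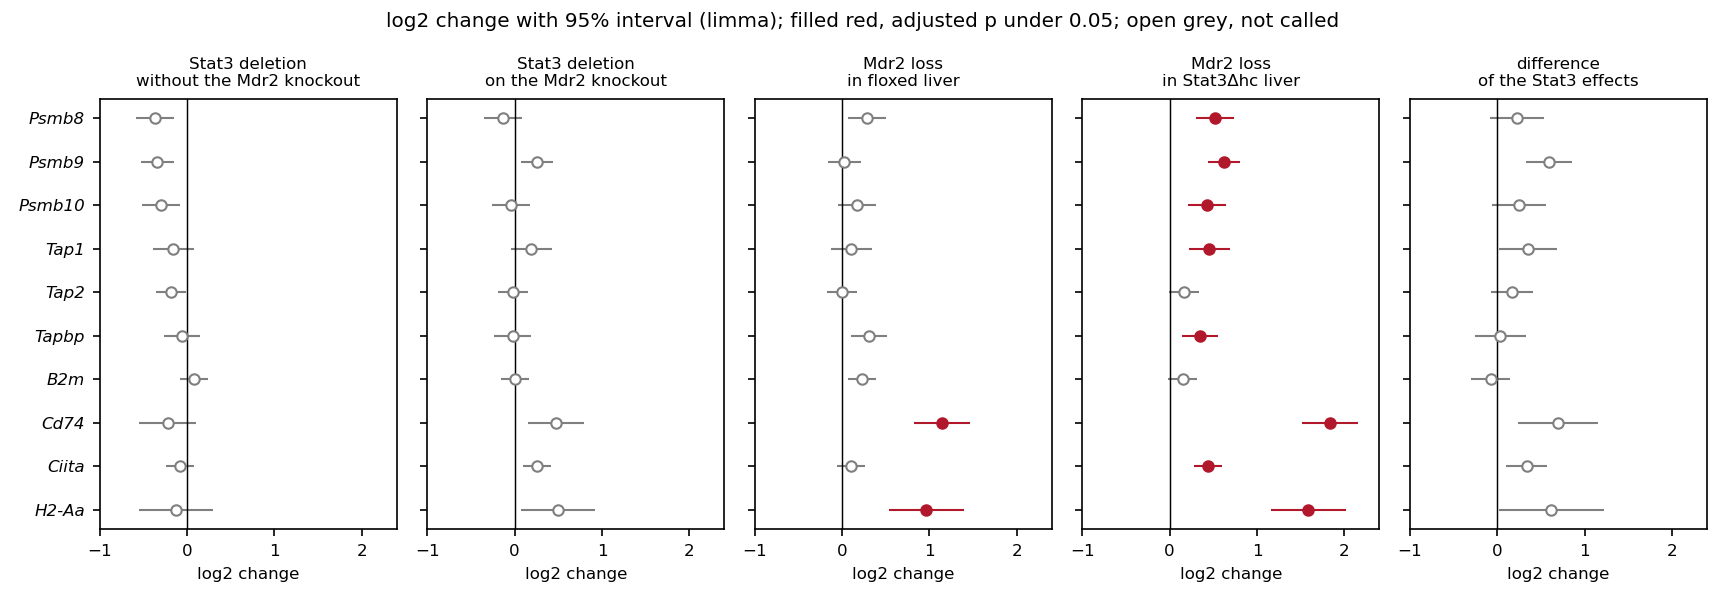
log2 changes (horizontal axis) of the 10 genes with 95% intervals in the 4 comparisons and in the difference of the Stat3 effects; filled red points have a limma adjusted p under 0.05. The red points are 2 genes for Mdr2 loss in floxed liver and 8 in Stat3Δhc liver, and there are none in the other 3 panels.

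Stat3 deletion without the Mdr2 knockout asks what the deletion does in liver with intact Mdr2. By limma 0 of the 10 were called, and 4 had an unadjusted p under 0.05 (Psmb8, Psmb9, Psmb10 and Tap2), against 16.4% of all tested genes. The immunoproteasome subunits had the 3 lowest changes, -0.36 for Psmb8 (95% interval -0.58 to -0.14, adjusted p = 0.0806), -0.34 for Psmb9 (-0.53 to -0.15, adjusted p = 0.058) and -0.29 for Psmb10 (-0.51 to -0.07, adjusted p = 0.152). In 5 of the 10, these 3 with Tap2 and Ciita, the 3 Stat3Δhc arrays lay below the 3 floxed arrays, which 10.8% of all tested genes did. Array A of floxed liver was the lowest of its group for all 3 subunits. Without it Psmb8 fell by 0.47 (adjusted p = 0.0111), Psmb9 by 0.40 (adjusted p = 0.0281) and Psmb10 by 0.39 (adjusted p = 0.0426). That fit called 5.39% of all tested genes, against 2.58% with the array. Psmb9 was also called without array C of Stat3Δhc Mdr2-/- liver (adjusted p = 0.0426, 3.49% of all tested genes). With other single arrays left out the limma adjusted p reached 0.335 for Psmb8, 0.248 for Psmb9 and 0.499 for Psmb10.

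The class II genes and B2m were not called in that comparison. Cd74 had a change of -0.22 (95% interval -0.54 to 0.10, limma adjusted p = 0.525) and H2-Aa of -0.12 (-0.55 to 0.30, adjusted p = 0.819). B2m alone had a change above 0, of 0.08 (-0.08 to 0.24, adjusted p = 0.663). The median of the 10 was -0.17 against -0.01 for all tested genes.

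Stat3 deletion on the Mdr2 knockout asks what changes in the livers that the study describes as developing cholestasis. By limma 0 of the 10 were called, and 4 had an unadjusted p under 0.05 (Psmb9, Cd74, Ciita and H2-Aa), against 28% of all tested genes. In these same 4 the 3 Stat3Δhc Mdr2-/- arrays lay above the 3 Stat3Fl/FlMdr2-/- arrays, which 10.9% of all tested genes did. The changes were 0.26 for Psmb9 (95% interval 0.07 to 0.44, adjusted p = 0.0876), 0.47 for Cd74 (0.15 to 0.80, adjusted p = 0.0738), 0.26 for Ciita (0.09 to 0.42, adjusted p = 0.0627) and 0.50 for H2-Aa (0.07 to 0.92, adjusted p = 0.131). The other 6 lay between -0.13 for Psmb8 and 0.19 for Tap1, and the interval of B2m ran from -0.16 to 0.17. Array C of Stat3Fl/FlMdr2-/- liver was the highest of its group for Cd74 and H2-Aa, and without it Cd74 changed by 0.62 (adjusted p = 0.0481) and H2-Aa by 0.72 (adjusted p = 0.053). The 3 Stat3Fl/FlMdr2-/- arrays were all Xist-high, but only array A among the Stat3Δhc Mdr2-/- arrays, so that sex pattern and Stat3 deletion overlap in this comparison. With the pattern as a covariate the changes were 0.50 for Cd74, 0.46 for H2-Aa, 0.22 for Ciita and 0.22 for Psmb9. These estimates rest on array A alone on the Stat3Δhc side and do not show that the changes hold apart from the sex pattern. The part of the sex pattern was not tested. The same limit holds for the list genes called in this comparison below.

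The difference between the Stat3 effects with and without the knockout is the same quantity as the difference between the Mdr2 effects with and without the Stat3 deletion, so it tests both. By limma 0 of the 10 were called (0.0715% of all tested genes), and 5 had an unadjusted p under 0.05 (Psmb9, Tap1, Cd74, Ciita and H2-Aa), against 16.9% of all tested genes. The estimate was above 0 for 9 of the 10, all but B2m. The smallest adjusted p belonged to Psmb9, with a difference of 0.59 (SE 0.12, 95% interval 0.33 to 0.86, adjusted p = 0.0932). Its 2 Stat3 effects, -0.34 without the knockout and 0.26 with it, had intervals on opposite sides of 0. Without array A of floxed liver the difference was 0.65 (adjusted p = 0.0478), and 0.458% of all tested genes were called. With other single arrays left out the limma adjusted p of Psmb9 reached 0.276. Cd74 had a difference of 0.69 (0.24 to 1.15, adjusted p = 0.224), H2-Aa of 0.62 (0.02 to 1.22, adjusted p = 0.286) and Ciita of 0.34 (0.10 to 0.57, adjusted p = 0.224). The median of the 10 was 0.29 against -0.04 for all tested genes. Every Stat3Fl/FlMdr2-/- array was Xist-high and every array with intact Mdr2 Y-linked, so that sex pattern overlaps with this difference too. With the pattern as a covariate it was 0.56 for Psmb9, 0.72 for Cd74, 0.59 for H2-Aa and 0.30 for Ciita. These values rest on array A alone for Stat3Δhc Mdr2-/- liver, and the part of the sex pattern was not tested.

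Correlations among the members differed between the arrays with and without the knockout, and did not follow the routes throughout. H2-Aa correlated with Cd74 at r = 0.98 over 12 arrays, 0.84 in the 6 arrays without the knockout and 0.95 in the 6 with it. Psmb8 correlated with Psmb10 at r = 0.94 over 12 arrays and 0.58 in the 6 with the knockout. With Psmb9, also an immunoproteasome subunit, Psmb8 correlated at 0.91 in the 6 arrays without the knockout and at -0.61 in the 6 with it, where Psmb9 and H2-Aa had 0.77. Psmb8 and H2-Aa correlated at r = 0.74 over 12 arrays, at 0.71 in the 6 arrays without the knockout and at -0.67 in the 6 with it. For deviations from the group means, pooled over all 4 genotypes, the r of Psmb8 with H2-Aa was 0.49 and that with Cd74 0.35. These pooled values do not give the sign within the knockout genotypes alone. Psmb8 and Ciita had -0.87 in the 6 knockout arrays and -0.63 for deviations from the group means. Among genes outside the lists, the 5 most like Psmb8 were Pdia5, Sla, Vcam1, Plek and Tshz2 (r = 0.94 to 0.96), and the 5 most like H2-Aa were Capg, Ephx1, Anxa5, Alpl and Slc20a1 (r = 0.95 to 0.96). These points share 4 genotypes, so that r mostly describes differences between genotypes.

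The other genes of the class II route were read beside the members. Of 5 tested class II chain and loading genes, 2 rose with Mdr2 loss in floxed liver and 3 in Stat3Δhc liver. H2-Ab1, the beta chain that pairs with H2-Aa, ranged from 7.48 to 8.05 with intact Mdr2, from 8.56 to 9.30 in Stat3Fl/FlMdr2-/- and from 9.21 to 9.47 in Stat3Δhc Mdr2-/- liver. It rose 2.03-fold in floxed liver (limma adjusted p = 0.00409) and 3.20-fold in Stat3Δhc liver (adjusted p = 0.000129). H2-Eb1, a beta chain of the other class II isotype, rose 1.75-fold (adjusted p = 0.00127) and 2.68-fold (adjusted p = 1.24e-05). H2-DMa, a chain of the peptide exchange factor, rose 1.45-fold in Stat3Δhc liver (adjusted p = 0.00431). The alpha and beta chain genes thus moved in the same arrays as Cd74.

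Endosomal enzymes that trim the invariant chain and its cargo changed in part. Of 7 tested, 3 rose in floxed and 4 in Stat3Δhc liver, and 2 in Stat3Δhc liver without the Xist-high array A. The changes of the 7 ran from -0.10 to 0.64 in floxed and from -0.07 to 0.70 in Stat3Δhc liver. Ctss, the protease that removes the last part of the invariant chain, rose 1.56-fold in floxed (limma adjusted p = 0.0144) and 1.63-fold in Stat3Δhc liver (adjusted p = 0.00779). Lgmn, an asparaginyl endopeptidase, rose 1.51-fold (adjusted p = 0.0151) and 1.62-fold (adjusted p = 0.00541). Of 7 factors that bind class II promoters 0 rose, and 1, the NF-Y subunit Nfyb, fell in floxed liver (-0.82, adjusted p = 0.00296) and in the Stat3Δhc background (-0.85, adjusted p = 0.0021).

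Class I heavy chains were harder to read. Of 18 on the list 9 had a cluster of their own, and their paralogs may share probes. No H2-K or H2-D chain was among these 9, which include class I-like genes. In floxed liver 1 rose, H2-Q4 (0.59, limma adjusted p = 0.00701), and in Stat3Δhc liver 3 rose, H2-Q2 (0.73, adjusted p = 0.00462), H2-Q4 (0.51, adjusted p = 0.0127) and H2-M3 (0.43, adjusted p = 0.0194), while the class I-like gene Cd1d1 fell (-0.38, adjusted p = 0.0256). Among 7 class I loading and peptide trimming genes other than the members, 0 were called in either background.

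Interferon gamma, which is known to induce Ciita and the immunoproteasome, was followed through its signalling genes and targets. Of 10 tested targets that are no members, 0 were called for Mdr2 loss in floxed liver (median change -0.06), and 6 rose in Stat3Δhc liver (median 0.50), 3 of them without array A of Stat3Δhc Mdr2-/- liver. The chemokine Cxcl9 had values of 6.59 to 7.45 in floxed, 6.45 to 6.85 in Stat3Δhc, 6.65 to 7.09 in Stat3Fl/FlMdr2-/- and 7.82 to 9.07 in Stat3Δhc Mdr2-/- liver. It rose 3.14-fold with Mdr2 loss in Stat3Δhc liver (limma adjusted p = 0.00255) and 2.54-fold with Stat3 deletion on the knockout (adjusted p = 0.0209). The groups of that last comparison also differ in sex pattern. Cxcl10 rose 4.90-fold with Mdr2 loss in Stat3Δhc liver (adjusted p = 0.00204), with array A at 10.34 above B and C at 8.93 and 9.21, and the GTPase genes Iigp1 and Gbp7 rose 1.59-fold (adjusted p = 0.0108 and 0.0297). With Stat3 deletion without the knockout 0 of the 10 targets were called by limma, and their median change was -0.32, against -0.17 for the 10 members.

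Of 9 tested interferon gamma signalling genes, 3 rose with Mdr2 loss in floxed liver, the receptor chains Ifngr1 (0.57, limma adjusted p = 0.0114) and Ifngr2 (0.39, adjusted p = 0.0207) and the factor Irf2 (0.44, adjusted p = 0.00515). In Stat3Δhc liver 2 rose, Irf8 (0.49, adjusted p = 0.00377) and Ifngr2 (0.46, adjusted p = 0.00755). Ifngr1 fell with Stat3 deletion on the knockout (-0.55, adjusted p = 0.0259), in which Psmb9, Cd74, Ciita and H2-Aa had changes above 0. Among 12 tested type I interferon targets 2 rose in floxed liver, and in Stat3Δhc liver 2 rose and 1 fell.

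**Figure D3:**
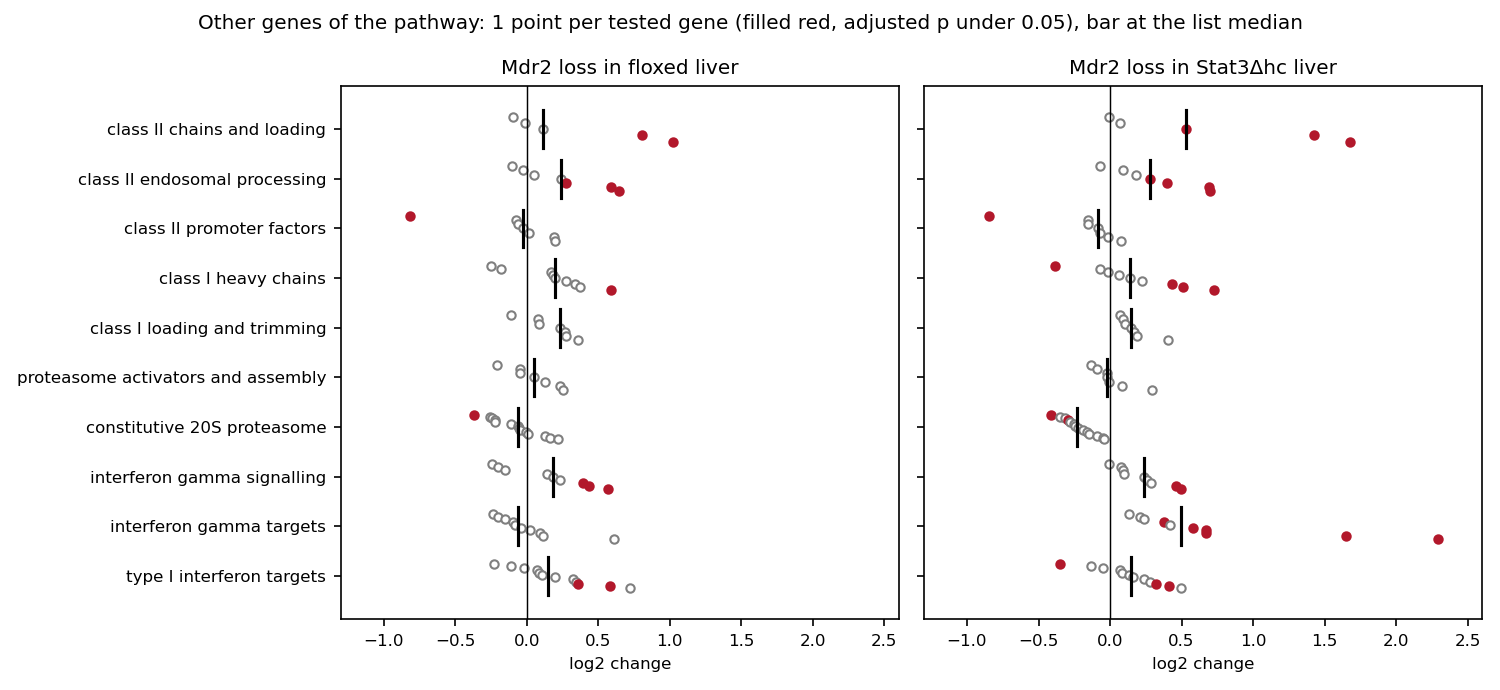
log2 changes (horizontal axis) of the tested genes of 10 pathway lists for Mdr2 loss in floxed liver and in Stat3Δhc liver; each point is 1 gene, filled red where the limma adjusted p is under 0.05, and bars mark list medians. The class II chains H2-Ab1 and H2-Eb1 stand apart to the right in both panels, the interferon gamma targets Cxcl9 and Cxcl10 in the right panel, and all 14 constitutive 20S subunits lie below 0 in the right panel.

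Markers of the cells that carry class II moved with these genes in part. Of 10 dendritic cell markers, 1 rose with Mdr2 loss in floxed liver (Siglech, 0.44, limma adjusted p = 0.0173) and 5 in Stat3Δhc liver, among them Itgax (0.81, adjusted p = 0.00095), Cd209a (0.55, adjusted p = 0.00216), Siglech (0.63, adjusted p = 0.00221) and the growth factor receptor Flt3 (0.49, adjusted p = 0.00336). In Stat3Δhc liver 8 of the 10 had a change above 0, and the lowest was -0.48 for Cd24a, which was not called. Cd24a fell with Stat3 deletion on the knockout (-0.93, adjusted p = 0.0346). The mean of the 10 lay between 6.09 and 6.19 in floxed, 6.04 and 6.11 in Stat3Δhc, 6.24 and 6.44 in Stat3Fl/FlMdr2-/- and 6.36 and 6.39 in Stat3Δhc Mdr2-/- liver, so that all 6 knockout arrays were above the 6 others, as for Cd74 and H2-Aa. Array C of Stat3Fl/FlMdr2-/- liver had the highest mean of its group here, as it had for both class II genes. The part of dendritic cell number in the class II result was not tested.

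The macrophage and Kupffer cell markers did not follow that order. Of 16, 2 rose and 1 fell with Mdr2 loss in floxed liver and 3 rose and 1 fell in Stat3Δhc liver, with the lipopolysaccharide receptor Cd14 (1.45 and 0.93, limma adjusted p = 0.0027 and 0.0242) and the fractalkine receptor Cx3cr1 (0.65 and 0.86, adjusted p = 0.0359 and 0.00821) called in both. Their mean lay between 8.29 and 8.76 in floxed, 8.23 and 8.45 in Stat3Δhc, 8.52 and 8.78 in Stat3Fl/FlMdr2-/- and 8.22 and 8.62 in Stat3Δhc Mdr2-/- liver. The groups with and without the knockout overlapped within each Stat3 background. With Stat3 deletion on the knockout Adgre1 and Csf1r fell (-0.56 and -0.54, adjusted p = 0.0461 and 0.0228), while Cd74 and H2-Aa had changes of 0.47 and 0.50. Of 10 tested B cell markers 0 rose in either background and 1, Bank1, fell in Stat3Δhc liver. The B cell marker mean lay between 5.56 and 6.09 over the 12 arrays, and its groups overlapped with and without the knockout.

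T and NK cell markers, whose cells are known to make interferon gamma, stood lowest in Stat3Δhc liver. Their mean lay between 5.54 and 5.74 in floxed, 5.34 and 5.45 in Stat3Δhc, 5.61 and 5.68 in Stat3Fl/FlMdr2-/- and 5.58 and 5.71 in Stat3Δhc Mdr2-/- liver. The immunoproteasome mean was lowest in the same group, between 8.06 and 8.10, against 8.24 to 8.52 in floxed, 8.55 to 8.60 in Stat3Fl/FlMdr2-/- and 8.52 to 8.68 in Stat3Δhc Mdr2-/- liver. Of 9 tested T and NK markers 0 were called with Mdr2 loss in floxed liver and 4 rose in Stat3Δhc liver, Nkg7 (0.58, limma adjusted p = 0.00288), Cd3e (0.42, adjusted p = 0.0228), Cd8b1 (0.31, adjusted p = 0.0293) and Prf1 (0.46, adjusted p = 0.0334). Of 12 endothelial markers 6 fell in Stat3Δhc liver. The part of any of these cells in the changes of the 10 genes was not tested.

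**Figure D4:**
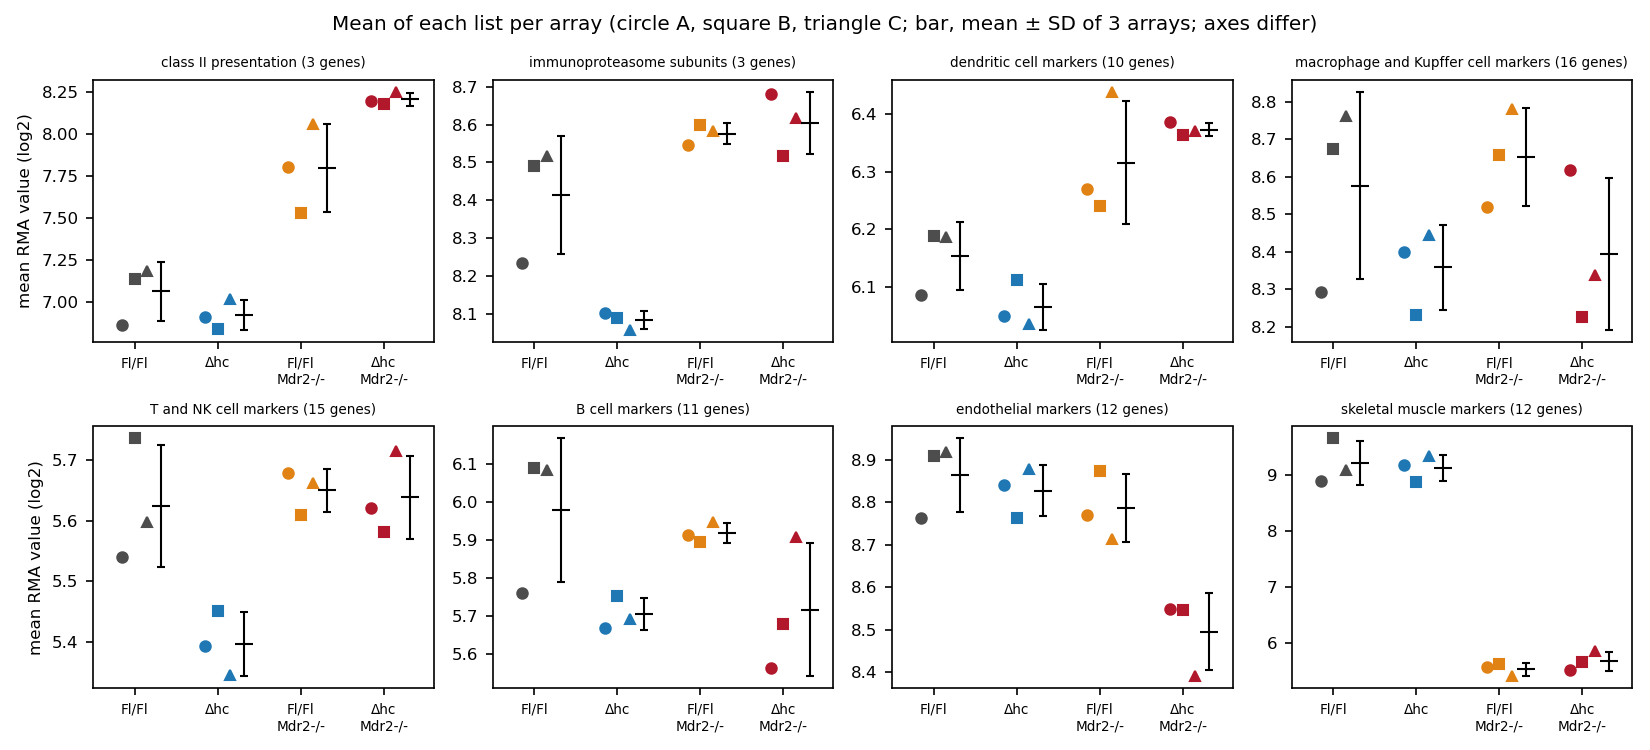
Mean log2 value (vertical axis, scaled per panel) of 2 member groups and 6 marker lists in each of the 12 arrays, by genotype; symbols mark arrays A, B and C and bars the mean and SD of 3 arrays. Class II genes and dendritic cell markers are higher in all 6 Mdr2-/- arrays, the immunoproteasome and T and NK cell means are lowest in the 3 Stat3Δhc arrays, and the muscle mean drops in the 6 Mdr2-/- arrays.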

How the data were processed

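RMA, named without a version in the submitters' processing notes, made the log2 values that the authors deposited. Samples were grouped by title. The platform annotation gives 1 gene for 21789 of the 35556 transcript clusters, several for 1621 and none for 12146. A gene's cluster of highest mean was used. The test took the 13977 genes that exceeded the 40th percentile of the clusters on 3 or more arrays. limma 3.58.1 (R 4.3.3; lmFit, eBayes) was fitted to all 12 arrays as 4 group means, with 8 residual degrees of freedom. The p-values were adjusted by Benjamini-Hochberg over all tested genes, at 0.05. It was first tested on simulated data. The 3 arrays per group limit the precision, with a median SE of 0.11 for a comparison and 0.155 for the difference.

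Named in the text are the 10 members, at most 4 passing genes of lowest adjusted p per list and comparison, Stat3 and Abcb4, and the 5 genes outside the lists most correlated with Psmb8 and with H2-Aa. The members and lists were chosen with earlier results of these data known. List genes without a cluster of their own were not analysed here. A list's mean per array is taken over its genes in the table, tested or not.

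Alternatives were a filter at the 60th percentile or none, averaged clusters per gene, array weights, scaling by cyclic loess or median centring, eBayes with trend and robust options, a fit to the compared groups only, the letter as a block, groups by source name, the Xist or Y-linked pattern as a covariate, and leaving out each array. The counts of list genes without array A of Stat3Δhc Mdr2-/- liver, and with the pattern as a covariate, were added after seeing the data. Promoters come from RefSeq (GRCm38.p6), which held 7 of the 10 members, and 1 motif that was searched is not reported here. Figures used matplotlib 3.10.9 in Python 3.11.15.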

Additional observations from a re-analysis of the deposited data

How the results depend on the processing

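No member reversed its direction in a called result. The count of members called for Mdr2 loss in Stat3Δhc liver lay between 6 and 9 over all alternatives (8.27% to 41.7% of tested genes). It lay between 6 and 8 when 1 array was left out (8.27% to 18.7%, against 17.4% as reported). For Mdr2 loss in floxed liver, 2 as reported, it was 4 with the 60th percentile filter, with trend and robust eBayes and with groups by source name, and 0 with the Xist or Y-linked pattern as a covariate (of all tested genes 12.8% were called as reported, 13.7% to 17.9% with the first 3 and 0.73% with the covariate); leaving out 1 array gave 2 to 3. For Stat3 deletion without the knockout, 0 as reported, it was 1 with the 60th percentile filter, cyclic loess or trend and robust eBayes, 5 with array weights (Psmb8, Psmb9, Psmb10, Tap2 and Cd74), which called 21.1% of all tested genes against 2.58% as reported, and 0 to 3 when 1 array was left out. For Stat3 deletion on the knockout it was 1 with cyclic loess and with array weights (6.78% and 16.4% of all tested genes, 5.77% as reported), and 0 to 1 when 1 array was left out. For the difference it was 2 with array weights and 1 with groups by source name (4.06% and 10.2% of all tested genes, 0.0715% as reported), and 0 to 1 when 1 array was left out. With 1 array left out, the share of all tested genes called ran from 7.91% to 15.2% for Mdr2 loss in floxed liver. It ran from 0.494% to 5.39% for Stat3 deletion without the knockout, 2.16% to 10.6% on it and 0% to 0.458% for the difference. The cause of these shifts was not tested. With the pattern as a covariate (0.73% of all tested genes called), 0 list genes were called for Mdr2 loss in floxed liver among the class II chains, endosomal enzymes, interferon gamma signalling genes and dendritic cell markers. A fit on the compared groups only gives no value for the difference.

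The labels do not say that the letters A to C pair the arrays. Deviations of same-letter arrays correlated at -0.41 to 0.37 over 18 pairs, and those of other arrays at -0.37 to 0.48. No pairing was seen, but these overlapping ranges cannot exclude it. With the letter as a replicate block the counts of members called were 0, 0, 0, 2 and 8, as without it. The 3 arrays per group, with a median SE of 0.11 on the log2 scale, limit the changes that can be called.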
